A study of Danio rerio with 4 samples.

Results

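The keratin genes of the zebrafish (*Danio rerio*) fin epidermis are described here in regenerating caudal fins. They were taken as every counted gene whose symbol starts with krt, the type I cytokeratin genes *cyt1* and *cyt1l*, and the ictacalcin genes *icn* and *icn2*, with the krtcap genes left out. No counted gene carried the symbol *cki*. The rule, which used names and no measured value, found 24 of the 31901 genes in the count files, of which 22 are keratin genes by name and 2 are ictacalcin genes. It was chosen with earlier results of these data known. Counts of members beside the share of all tested genes are therefore descriptions and no independent support.

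RNA was sequenced from adult fish 96 hours after the fin was amputated. The 2 longfin heterozygous libraries came from fish with 1 copy of the dominant *longfin* allele, which gives overgrown fins, and the 2 wildtype libraries from their clutchmates without it. All fish of both genotypes carried the sp7:eGFP transgene, a reporter of osteoblasts, and the tissue was the tip of the regenerate beyond the GFP-positive cells, with the tips of 4 fins pooled per library. The sources used here do not state that the pools of a genotype came from separate clutches, and the p-values therefore cover only the spread between these libraries, which may be technical. Where 2 values are given for a genotype, replicate 1 comes first.

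Keratins are the intermediate filament proteins of epithelial cells. A type I and a type II keratin pair to form each filament, and the filaments are tied to desmosomes between cells and to hemidesmosomes at the basement membrane. Zebrafish epidermis has a basal, an intermediate and a superficial layer, and after amputation a multilayered wound epidermis covers the stump and the growing blastema. Layers and states of the epidermis differ in the keratins they make. Ictacalcins are calcium-binding proteins of fish epithelia that belong to the S100 family and are not filament proteins.

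Each library had 19428186 to 23157979 reads assigned to genes. HTSeq, the counting program, put 28.7 to 41.9% of all its entries in a library in the class without a unique alignment. Wildtype replicate 1 was the highest. The sources do not say whether a read entered this class once or once per alignment, so this is no exact share of reads. Keratin genes have close copies, so reads shared between copies may be missing from the counts and the level of any single copy is uncertain. Levels are given as CPM, the number of reads scaled to the total in tested genes and corrected by TMM factors. Transcript lengths were not used, so CPM of different genes are numbers of reads and not of molecules.

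The 24 genes together took 2.46% of all gene reads in longfin heterozygous replicate 1 and 2.74% in replicate 2. In wildtype replicates 1 and 2 the shares were 2.69 and 3.4%. The summed level was 24120 and 27377 CPM in longfin tips and 28480 and 32857 CPM in wildtype tips. In CPM both longfin libraries lay below both wildtype libraries, but longfin heterozygous replicate 2 was nearer to wildtype replicate 1 than to its own replicate. This separation depended on the TMM scaling. As shares of all gene reads the genotypes overlapped, with longfin heterozygous replicate 2 at 2.74% above wildtype replicate 1 at 2.69%. The means were 25748 ± 2303 CPM (SD, n = 2) and 30668 ± 3095 CPM (SD, n = 2), a log2 ratio of -0.25, or 16% lower in longfin tips. With 1 library left out at a time the log2 ratio lay between -0.35 and -0.15, and no test was made of this sum. In a bulk sample, fewer epidermal cells and less keratin RNA per cell cannot be told apart.

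**Figure D1:**
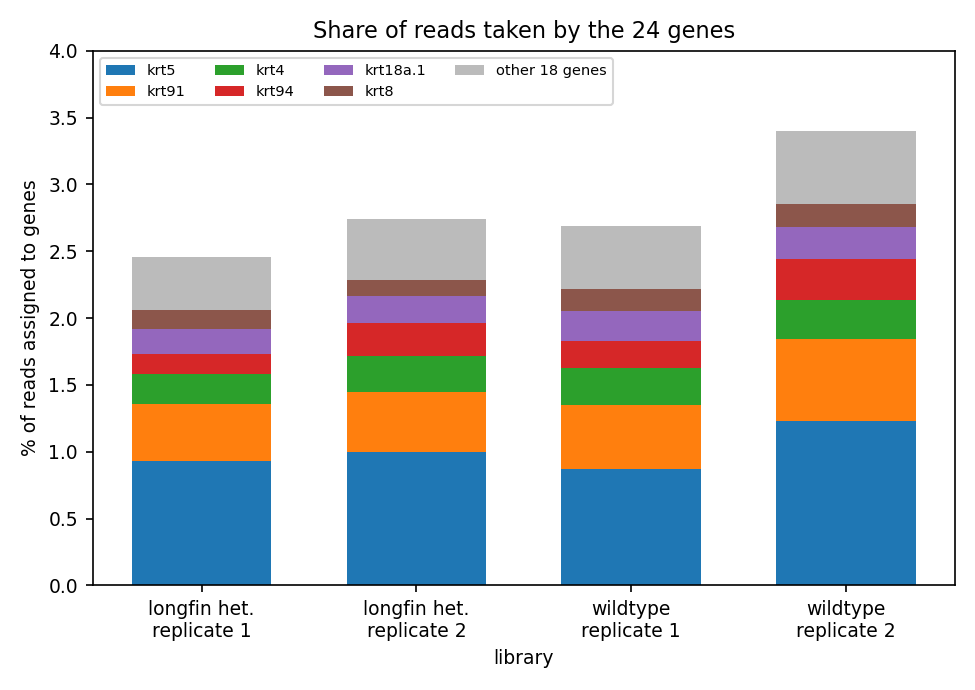
Stacked bars give the percentage of all reads assigned to genes that fell on the 24 genes in each of the 4 libraries, split into the 6 genes with the most reads and the remaining 18. The totals run from 2.46% in longfin heterozygous replicate 1 to 3.4% in wildtype replicate 2, and *krt5* is the largest segment in every library.

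A few genes held most of these reads. *krt5* alone took 32.4 to 37.7% of the reads of the 24 genes, the leading 3 (*krt5*, *krt91* and *krt4*) took 60.6 to 64.4%, and the leading 12 took 97.7 to 98.1%. The 3 genes used as markers of fin epidermis were all strongly represented, since by number of reads *krt5* ranked between 5 and 7, *krt91* between 12 and 18 and *krt4* between 25 and 28 among all genes of a library. These markers are themselves members of the 24 genes, so their reads show that they were detected in all 4 libraries and give no separate ground for the label of fin epidermis. At the other end, *krt95* had 0 reads in every library, which allows up to 0.125 to 0.162 CPM per library (3 reads; counting error only), while *krt1-c5* had 6, 1, 0 and 3 reads and *cyt1l* 6, 1, 6 and 3 reads, in the order longfin 1, longfin 2, wildtype 1 and wildtype 2. These 3 fell below the count filter and the other 21 were tested.

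Of the 21 tested genes, 0 passed edgeR's quasi-likelihood test at an adjusted p of 0.05, where 0.403% of all 18366 tested genes passed. At an unadjusted p under 0.05, 7 of the 21 were lower in longfin tips and 0 higher, against 5.82 and 3.66% of all tested genes. These 7 were *krt8*, *krt18a.1*, *krt91*, *krt17*, *krt1-19d*, *krt1-19e* and *icn2*. The log2 fold change of longfin heterozygous over wildtype was below 0 in 20 of the 21, against 50.3% of all tested genes, with *cyt1* as the exception. Its median was -0.29 over the 21 genes and 0 over all genes tested. Among the 20 is *krt18a.2*, with 8 and 9 reads in longfin tips and 10 and 14 in wildtype tips. That gene passed the count filter only through its wildtype libraries, so its direction is not read as a result. The same holds for *krt98*, with 9 and 10 reads against 13 and 21, since its longfin libraries alone would not have passed. All 21 genes were read in the same 4 libraries. Counts of genes, here and below, are therefore not counts of independent results.

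The 14 members with a mean of at least 100 CPM had log2 fold changes between -0.49 and -0.1. The median of these 14 was -0.28, and that of all 1620 genes at such levels was 0.01. In CPM, the 2 longfin libraries lay below the 2 wildtype libraries in 13 of the 21 genes and above them in 1, where 19.8 and 20% of all tested genes did so. The 13 include *krt18a.2* and *krt98*. They also include *icn* and *krt18b*, which overlapped when taken as shares of all gene reads. DESeq2 called 2 of the 21, *krt8* and *krt1-19e*, both lower, where it called 1.19% of all genes it tested as lower. Without longfin heterozygous replicate 1 the keratin median was -0.17, and 18 of 21 tested members had a log2 fold change below 0. Without wildtype replicate 2 it was -0.24, with 15 of 20 below 0. The medians over all tested genes were -0.01 and 0.01 in these fits.

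**Figure D2:**
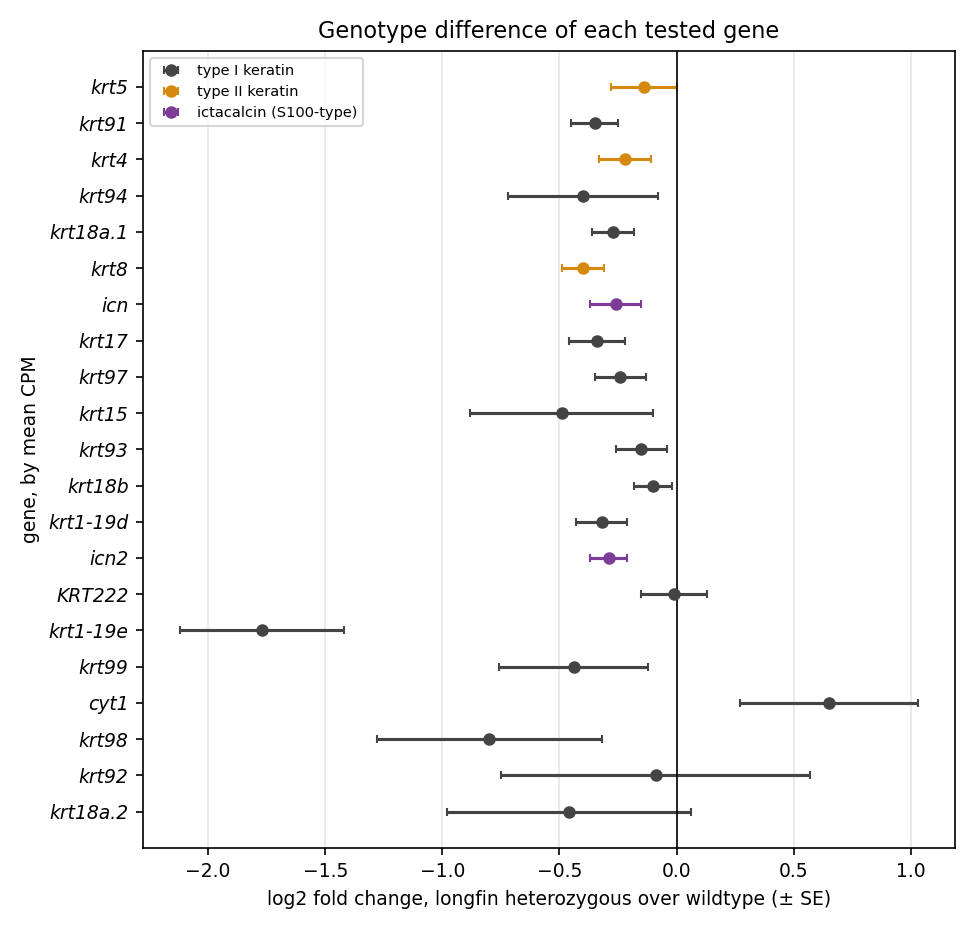
Points give the log2 fold change of longfin heterozygous over wildtype for the 21 tested genes, ordered by mean CPM, with bars of 1 standard error and colours for type I keratins, type II keratins and ictacalcins. The 14 genes with the most reads all lie between -0.49 and -0.1, *krt1-19e* stands at -1.77 and *cyt1* at 0.65.

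Of the type II keratins, *krt5* encodes a partner of basal keratins in mammals and had the most reads. It stood at 9094 and 10021 CPM in longfin tips and at 9217 and 11854 CPM in wildtype tips. The genotypes overlapped, because wildtype replicate 1 was below longfin heterozygous replicate 2. Its log2 fold change was -0.14 ± 0.14 (SE) with an edgeR adjusted p of 0.821, and it was 0.05 without wildtype replicate 2 and -0.31 without wildtype replicate 1.

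*krt4*, whose promoter is widely used to mark the outer layers of zebrafish epidermis, had 2234 and 2672 CPM in longfin tips and 2918 and 2787 CPM in wildtype tips. The genotypes did not overlap, and longfin heterozygous replicate 2 lay close to the wildtype values. The log2 fold change was -0.22 ± 0.11 (SE) with an edgeR adjusted p of 0.616. It was -0.09 without longfin heterozygous replicate 1 and -0.35 without replicate 2.

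*krt8* encodes the type II partner of keratin 18 in simple and embryonic epithelia. It had 1331 and 1189 CPM in longfin tips and 1677 and 1652 CPM in wildtype tips, so that the wildtype libraries differed little from each other and both were above both longfin libraries. The means were 1260.2 ± 100.3 CPM (SD, n = 2) and 1665 ± 17.2 CPM (SD, n = 2), or 24.3% lower in longfin tips. The log2 fold change was -0.4 ± 0.09 (SE), with an adjusted p of 0.191 in edgeR and 0.0451 in DESeq2. With 1 library left out its log2 fold change lay between -0.48 and -0.32, and its edgeR adjusted p between 0.313 and 0.691.

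The *krt18* genes encode the type I partners. *krt18a.1* had 1882 and 2039 CPM in longfin tips and 2391 and 2335 CPM in wildtype tips, with no overlap and a log2 fold change of -0.27 ± 0.09 (SE; edgeR adjusted p = 0.387). *krt18b* had 353 and 356 CPM against 366 and 393 CPM, also without overlap but nearly level, at -0.1 ± 0.08 (SE; edgeR adjusted p = 0.778) and at -0.04 without wildtype replicate 2. As a share of all gene reads *krt18b* did overlap, at 0.0359 and 0.0357% against 0.0345 and 0.0407%. The third copy, *krt18a.2*, had 8 to 14 reads per library. The number of *krt8* reads per *krt18a.1* read was 0.707 and 0.583 in longfin tips and 0.701 and 0.708 in wildtype tips, so longfin heterozygous replicate 2 alone departed from the other 3.

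*krt91*, a type I keratin gene and the second of the 24 by reads, had 4210 and 4464 CPM in longfin tips and 5111 and 5933 CPM in wildtype tips. The genotypes did not overlap, and the libraries of each differed by less on the log2 scale (0.08 and 0.22) than the genotypes did. The means were 4337 ± 179.8 CPM (SD, n = 2) and 5522 ± 581 CPM (SD, n = 2), or 21.5% lower in longfin tips. The log2 fold change was -0.35 ± 0.10 (SE) with an edgeR adjusted p of 0.352.

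*krt17*, named after a mammalian keratin that is induced by wounding, had 756 and 717 CPM in longfin tips and 818 and 1047 CPM in wildtype tips. Wildtype replicate 2 stood apart from the other 3, and the log2 fold change was -0.34 ± 0.12 (SE; edgeR adjusted p = 0.457). The type I gene *krt97* had 676 and 657 CPM against 867 and 704 CPM, without overlap, at -0.24 ± 0.11 (SE; edgeR adjusted p = 0.595). *krt93*, also of type I, had 430.5 and 467 CPM against 549 and 449.6 CPM, with overlap, at -0.15 ± 0.11 (SE; edgeR adjusted p = 0.754). These 3 values moved with the wildtype libraries. Without wildtype replicate 1 they were -0.51 for *krt17*, -0.08 for *krt97* and 0 for *krt93*, and without wildtype replicate 2 they were -0.15, -0.38 and -0.29.

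**Figure D3:**
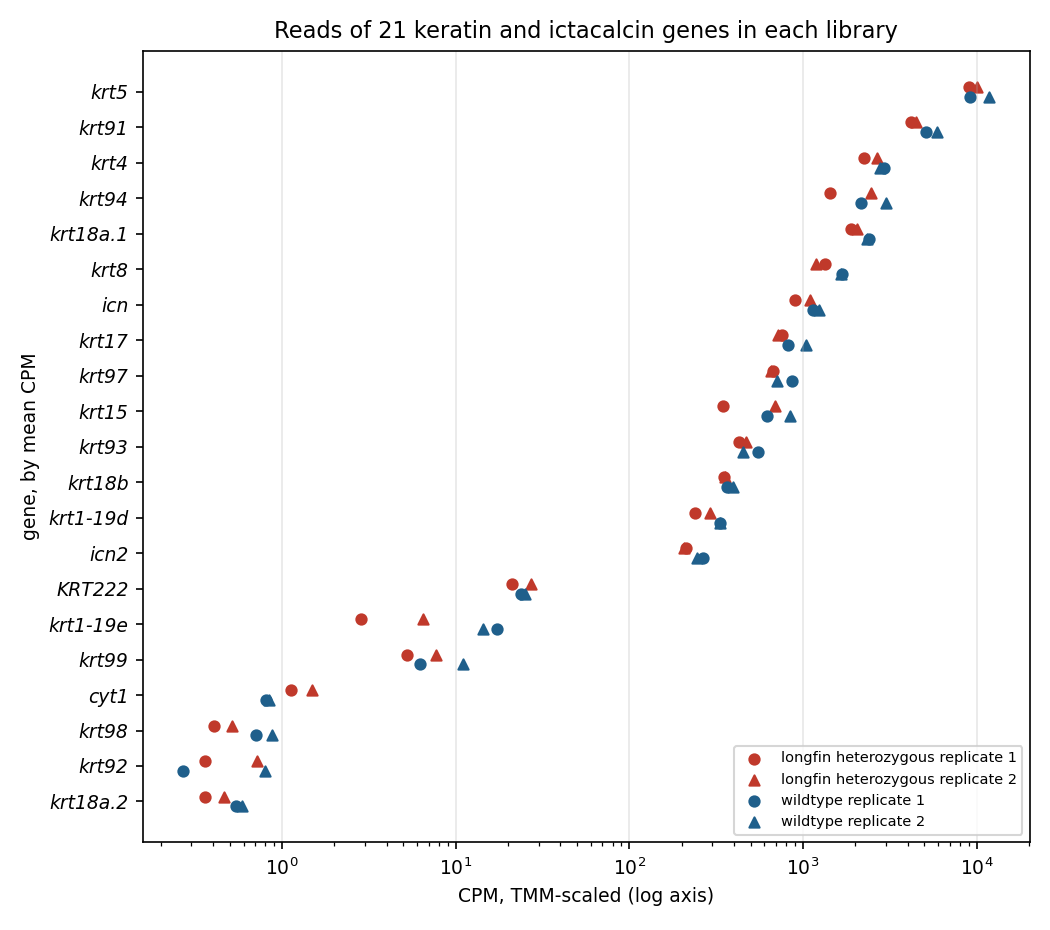
Points give the TMM-scaled CPM of each tested gene in each library on a log axis, with red for longfin heterozygous, blue for wildtype, circles for replicate 1 and triangles for replicate 2. In *krt8*, *krt18a.1*, *krt91* and *krt1-19e* the red and blue points are separate, while in *krt5*, *krt94* and *krt15* they overlap.

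*krt94* and *krt15* differed widely between replicates, and in both genes the longfin replicates lay further apart on the log2 scale than the genotypes did. *krt94* had 1422 CPM in longfin heterozygous replicate 1 and 2464 CPM in replicate 2, against 2153 CPM in wildtype replicate 1 and 2988 CPM in replicate 2. *krt15*, which shares its name with a mammalian keratin of basal and stem keratinocytes, had 348 and 694 CPM in longfin tips and 620 and 843 CPM in wildtype tips. Replicate 2 was above replicate 1 in both genotypes, by 0.79 and 0.47 on the log2 scale for *krt94* and by 1.00 and 0.44 for *krt15*, and the genotypes overlapped in both genes. The log2 fold changes were -0.40 ± 0.32 (SE; edgeR adjusted p = 0.787) and -0.49 ± 0.39 (SE; edgeR adjusted p = 0.789). The low longfin value came from replicate 1, since without it the log2 fold changes were -0.06 for *krt94* and -0.08 for *krt15*.

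The size of the difference between genotypes was set beside the larger of the replicate differences for each gene. It was the greater in 9 of the 21 genes. The 9 include *cyt1*, which was higher in longfin tips, and *krt98* and *krt18a.2*, which had few reads. Neither this count nor the median replicate differences were worked out over all tested genes, so they do not show whether the keratin genes stand out. The median difference between replicates, without sign, was 0.27 on the log2 scale in longfin tips and 0.22 in wildtype tips. The median log2 fold change of -0.29 keeps its sign and compares genotypes of 2 libraries each. Its size is therefore not directly comparable with differences between single libraries. Replicate 2 was above replicate 1 in both genotypes in 13 of the 21 genes, against 29.8% of all tested genes.

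**Figure D4:**
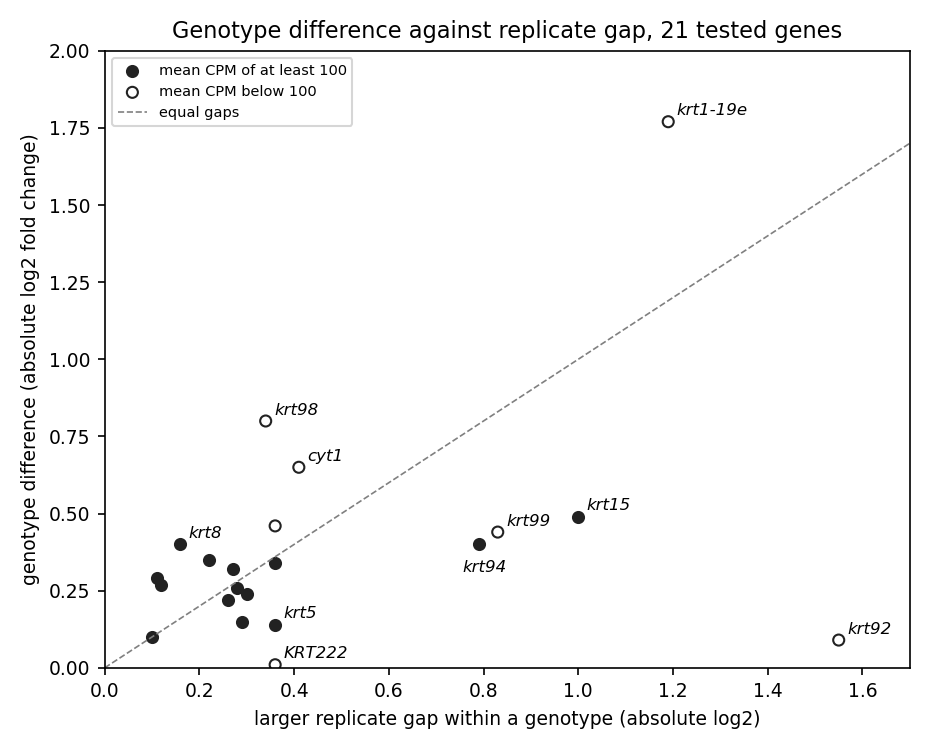
The absolute log2 fold change between genotypes (y axis) is plotted against the larger absolute log2 difference between replicates of a genotype (x axis) for the 21 tested genes, with open circles for genes below a mean of 100 CPM. The 9 points above the dashed line of equal gaps include *krt8* and *krt1-19e*, and *krt15*, *krt94*, *krt99* and *krt92* lie below it.

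The largest difference was in *krt1-19e*, a type I keratin gene also listed as krtt1c19e, whose promoter is used to mark basal keratinocytes in zebrafish. It had 63 and 126 reads in longfin tips and 318 and 344 reads in wildtype tips. As CPM these were 2.84 and 6.48 against 17.2 and 14.4, so that both longfin libraries were below both wildtype libraries while differing from each other by 1.19 on the log2 scale. The means were 4.66 ± 2.58 CPM (SD, n = 2) and 15.8 ± 2.00 CPM (SD, n = 2). The log2 fold change was -1.77 ± 0.35 (SE), or 3.42-fold lower in longfin tips, with an adjusted p of 0.181 in edgeR and 0.000114 in DESeq2. With 1 library left out it lay between -2.47 and -1.28, with an edgeR adjusted p between 0.0714 and 0.457.

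*krt1-19d*, which lies next to *krt1-19e* in the genome, had 239.8 and 289.9 CPM in longfin tips and 331 CPM in each wildtype library. There was no overlap, and the log2 fold change was -0.32 ± 0.11 (SE; edgeR adjusted p = 0.406), smaller in size than that of its neighbour, and -0.19 without longfin heterozygous replicate 1.

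Among the keratin genes with few reads, *cyt1* had the only log2 fold change above 0. It encodes an embryonic type I cytokeratin known from the outermost cell layer of the embryo. It had 25 and 29 reads in longfin tips against 15 and 20 in wildtype tips, or 1.13 and 1.49 CPM against 0.811 and 0.835 CPM, without overlap. Its log2 fold change was 0.65 ± 0.38 (SE; edgeR adjusted p = 0.69). *krt98* had 9 and 10 reads against 13 and 21, and *krt92* 8 and 14 against 5 and 19. *krt99* stood at 5.27 and 7.71 CPM against 6.22 and 11 CPM with a log2 fold change of -0.44, and it was 0.06 without wildtype replicate 2. KRT222, a keratin-like gene given its human symbol, was level, at 21.2 and 27.2 CPM against 23.9 and 24.9 CPM, with a log2 fold change of -0.01 that turned to 0.01 with upper quartile scaling and with library size only.

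The ictacalcin genes, which are not keratins, both had log2 fold changes below 0. *icn* stood at 902 and 1095 CPM in longfin tips and at 1148 and 1240.3 CPM in wildtype tips, and its log2 fold change was -0.26 ± 0.11 (SE; edgeR adjusted p = 0.545). It was -0.12 without longfin heterozygous replicate 1 and -0.4 without replicate 2. *icn2* stood at 213 and 207 CPM against 266 and 247 CPM, and its log2 fold change was -0.29 ± 0.08 (SE; edgeR adjusted p = 0.326). Neither overlapped between genotypes in CPM. As a share of all gene reads *icn* did overlap, at 0.0919 and 0.11% in longfin tips against 0.108 and 0.128% in wildtype tips. Without the ictacalcins the median over the remaining 19 tested genes was -0.32.

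By type, the 3 type II genes summed to 12658 and 13883 CPM in longfin tips and to 13812 and 16294 CPM in wildtype tips, which overlap. The 19 type I genes summed to 10347 and 12192 CPM against 13255 and 15076 CPM, which do not. There were 1.22 and 1.14 type II reads per type I read in longfin tips and 1.04 and 1.08 in wildtype tips. The type II sum is led by *krt5*, and the log2 ratio of the genotype means was -0.18 for type II and -0.33 for type I.

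Keratin genes lie in runs of neighbours. In the RefSeq annotation of the GRCz12tu assembly, used for gene order alone because the authors' build is GRCz11, the 24 genes form 6 runs of neighbours and 2 single genes. The longest run holds 7 members, *krt1-19d*, *krt1-19e*, *krt92*, *cyt1l*, *cyt1*, *krt17* and *krt91*, with 0 other protein-coding genes between them. Their mean levels ran from 0.193 to 4929 CPM and their log2 fold changes from -1.77 to 0.65, so this run holds both extremes of the 21 tested genes. A run of 5 held *krt93*, *krt94*, *krt98*, *krt15* and *krt99*, with log2 fold changes from -0.8 to -0.15. The run of *krt5*, *krt8*, *krt18a.1* and *krt18a.2* joins the type II genes *krt5* and *krt8* to type I genes, with log2 fold changes from -0.46 to -0.14. The other runs were *krt4* with *krt18b*, KRT222 with *krt97*, and *icn* with *icn2*.

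Genes that work with keratins were read beside them from lists chosen by function, with earlier results of these data known. Some list entries were removed after values had been seen. For these lists and those below, counts beside the share of all tested genes are therefore descriptions and no independent support. Of 19 tested desmosome and hemidesmosome genes, 3 fell and 0 rose in edgeR over all genes, where 0.294% of all tested genes fell and 0.109% rose. The median log2 fold change of the list was -0.41. At an unadjusted p under 0.05, 10 were lower and 0 higher, against 5.82 and 3.66% of all tested genes. DESeq2 called 8, all lower, where it called 1.19% of all genes as lower and 0.428% as higher. *pkp2*, a plakophilin gene whose product links desmosomal cadherins to the keratin anchor, had 74.3 and 79.8 CPM in longfin tips against 194 and 182 CPM in wildtype tips (log2 fold change -1.29, edgeR adjusted p = 0.00545). The other two were *pkp3a* at -1.05 and the desmosomal cadherin gene *dsg2.1* at -0.67. DSP (ENSDARG00000022309), the desmoplakin gene whose product binds keratin filaments, stood at -0.54 with an edgeR adjusted p of 0.0978. *dsg2.1* did not pass with limma voom (adjusted p = 0.054), when genes under a mean of 50 counts were left out (0.0575) or without wildtype replicate 1 (0.115), and all 3 calls were absent without longfin heterozygous replicate 1 and without longfin heterozygous replicate 2.

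Of 10 tested cytolinker and keratin-binding genes, 0 passed in edgeR over all genes. At an unadjusted p under 0.05 there were 3 lower and 0 higher (5.82 and 3.66% of all tested genes), and DESeq2 called *eppk1* and PPL, both lower (1.19% of all genes). The median was -0.14. The plectin genes *pleca* and *plecb*, whose products tie filaments to the cell's other scaffolds, stood at -0.23 and -0.19. Of 15 other intermediate filament genes, which include lamins and vimentin, 0 passed in edgeR and the median was -0.09. At an unadjusted p under 0.05, 1 was lower and 0 higher (5.82 and 3.66% of all tested genes). DESeq2 called 1 as lower, the lamin gene LMNA (1.19% of all genes). LMNA stood at -0.49 and LMNB2 at -0.10. The keratin genes' median of -0.29 thus lay between the desmosome list and the filament list, and no test was made between lists.

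Layer markers that are not keratin genes were read beside these values. Of 31 cornified envelope and superficial layer genes, 2 fell and 0 rose in edgeR over all genes (0.294 and 0.109% of all tested genes), the annexin gene ANXA1 at -0.61 and the transglutaminase gene *tgm5l* at -1.69, and the median was -0.29. At an unadjusted p under 0.05, 14 of the 31 were lower and 1 higher (5.82 and 3.66% of all tested genes), and DESeq2 called 6, all lower (1.19% of all genes). ANXA1 did not pass with any 1 library left out (edgeR adjusted p = 0.0676 to 0.308), nor did *tgm5l* without either longfin library. The superficial layer markers were matched to 12 identifiers, a pair of them TGM1. They summed to 5402 and 5489 CPM in longfin tips and to 8526 and 7295 CPM in wildtype tips, without overlap. Of the 12, 11 had a log2 fold change below 0, against 50.3% of all tested genes. *ahnak*, a large scaffold protein gene, led this sum with 2892 and 2943 CPM against 4597 and 3884 CPM. All 12 also belong to the cornified envelope, desmosome, cytolinker or epidermal transcription factor lists, so they are no separate readout. Of 22 basal layer genes 0 passed in edgeR, and the median was 0.01. At an unadjusted p under 0.05, 2 of the 22 were lower and 1 higher, near the 5.82 and 3.66% of all tested genes. DESeq2 called *lamb3*, as lower (1.19% of all genes). The basal layer markers, matched to 16 identifiers, summed to 9955 and 9156 CPM against 9717 and 8341 CPM, with overlap. FREM2, a basement membrane gene counted under a pair of identifiers, stood at 0.08 (ENSDARG00000102626) and at 0.22 (ENSDARG00000076856). The lowest and highest of the list were *lgals1l1* at -1.25 and the laminin gene LAMA5 at 0.32, and *lamb3*, another laminin gene, stood at -0.77. Their edgeR adjusted p were 0.329, 0.31 and 0.422. On average *lgals1l1* had few reads, at 1.44 CPM, beside 839.8 CPM for LAMA5 and 51.6 CPM for *lamb3*. Among the basal layer markers, the hemidesmosome genes *col17a1a* and *itga6b* stood at -0.81 and -0.37, with edgeR adjusted p of 0.067 and 0.334. Their relatives *col17a1b* and ITGA6 stood at 0.05 and 0.36, and ITGB4 at -0.21. Mean levels were 1180.7 CPM for *col17a1b*, 20.4 CPM for *col17a1a* and 0.743 CPM for ITGA6. Over the 16 identifiers the median was 0.03, with 7 below 0. These 16 are also counted in the basal layer or desmosome lists. The part of layer makeup in the keratin values was not tested.

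Of 28 tested epidermal transcription factor genes, 2 fell and 3 rose in edgeR over all genes (0.294 and 0.109% of all tested genes). At an unadjusted p under 0.05, 5 were lower and 5 higher (5.82 and 3.66% of all tested genes). DESeq2 called 3 lower and 4 higher (1.19 and 0.428% of all genes). KLF4, a factor of epidermal differentiation, stood at 28.1 and 37.6 CPM in longfin tips against 208 and 217 CPM in wildtype tips. Its log2 fold change was -2.69. *klf5l* fell with -1.65, while *egr1*, ELF3 and MAF (ENSDARG00000015890) rose. The other MAF identifier, ENSDARG00000076520, had a mean of 1.2 CPM and overlapped at -0.07. TP63, the factor of basal keratinocytes, was level at 0.05. KLF4 was the only one of the 5 to pass without longfin heterozygous replicate 1 or without longfin heterozygous replicate 2.

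Markers of other cell types were read in the same libraries. The 4 of 5 mucous cell markers that were matched summed to 5.71 to 9.51 CPM over all libraries, with SPDEF at 0. AGR2 held most of this sum and overlapped between genotypes. The mucin gene *muc5.2* had 0.27 and 0.308 CPM in longfin tips against 2.97 and 1.63 CPM in wildtype tips (log2 fold change -2.93, edgeR adjusted p = 0.107). DESeq2 called it lower (1.19% of all genes). It passed the count filter only through its wildtype libraries, so neither its direction nor this call is read as a result. *muc5.1*, below the count filter, had 0.09 and 0.154 CPM against 0.432 and 0.459 CPM. The 5 of 7 matched ionocyte markers summed to 112 and 103.1 CPM in longfin tips against 189 and 131 CPM in wildtype tips, without overlap. Nearly all of this sum was *ca2*, a carbonic anhydrase gene, at 110 and 99.3 CPM against 185.5 and 125.7 CPM. TRPV6 was also lower without overlap, at 1.53 and 2.21 CPM against 2.54 and 3.26 CPM (log2 fold change -0.66, edgeR adjusted p = 0.588). *foxi3b* overlapped at -0.08, and *foxi3a* and *atp1a1a.2* reached at most 0.411 and 0.206 CPM. Of 7 listed blastema mesenchyme markers, those matched were counted under 6 identifiers, a pair of them TNC. They summed to 3064 and 3199 CPM in longfin tips against 2555 and 2613 CPM in wildtype tips, without overlap and opposite in direction to the keratin sum. Most of this sum was TNC (ENSDARG00000021948), at 2116 and 2354 CPM against 1844 and 1971 CPM. In all, 5 of the 6 identifiers were higher in longfin tips without overlap, as were 20% of all tested genes, while *twist1a* overlapped at -0.02. In edgeR over all genes 0 of the 6 passed (lowest adjusted p = 0.236). At an unadjusted p under 0.05, 4 were higher and 0 lower (3.66 and 5.82% of all tested genes). DESeq2 called 1 as higher (0.428% of all genes). The sums of osteoblast, endothelium, red blood cell, and macrophage and neutrophil markers overlapped between genotypes. Although *bglap* and *lyz* were at 0, other markers of these cell types were detected in all 4 libraries. The osteoblast gene SP7 had 45.9 and 57.4 CPM in longfin tips against 45.4 and 56.1 CPM in wildtype tips. For the macrophage and neutrophil marker LCP1 the values were 43.9 and 59.3 CPM against 40.4 and 54.1 CPM. The part of these cell types in the keratin values was not tested.

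**Figure D5:**
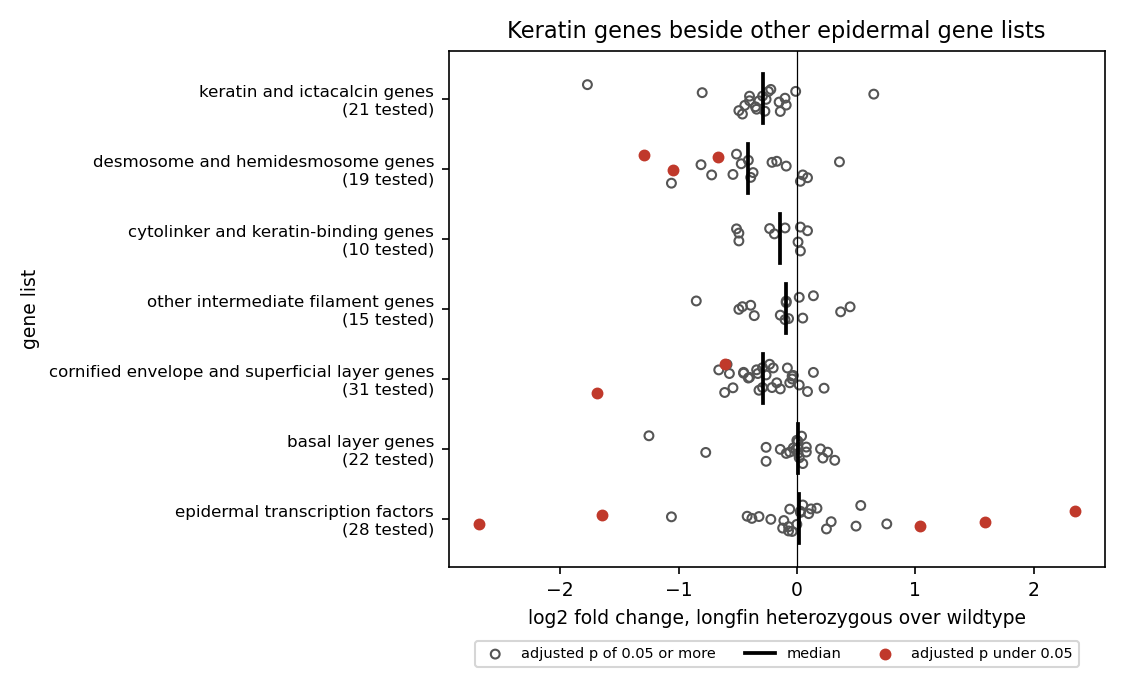
Each point is the log2 fold change of a tested gene in 1 of 7 lists, with red for an adjusted p under 0.05 in edgeR over all genes and a black bar at the list median. The medians are -0.29 for the keratin and ictacalcin genes, -0.41 for desmosome genes, -0.29 for superficial layer genes and 0.01 for basal layer genes, and no keratin gene is red.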

How the data were processed

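TopHat2, HTSeq and the GRCz11 (danRer11) build are named in the submitters' processing notes. Their versions, annotation release, strand setting and overlap mode are not given in the sources at hand. The authors deposited 1 file per library of raw, unscaled counts for each Ensembl ID. The unnamed total row and the HTSeq classes (28.7 to 41.9% not unique, 7.78 to 9.31% in no gene, 1.08 to 1.38% ambiguous) stayed out of library sizes and tests. Symbols came from a table naming 29178 of 31901 IDs.

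Counts were analysed in R 4.3.3 with edgeR 4.0.16: filterByExpr with the genotypes as groups, TMM factors, quasi-likelihood fit (legacy off, robust on), two-sided test, no replicate term, Benjamini-Hochberg over 18366 genes, threshold 0.05. The filter asked for about 10 counts, scaled to library size, in any 2 of the 4 libraries, and for 15 counts in all. The standard error was taken as the log2 fold change over the root of its F value. The fit was tested on simulated data. Alternatives were other scalings and filters, DESeq2 1.42.0, limma voom (3.58.1), a replicate block and each library left out. Members and lists were chosen with earlier results of these data known, and 5 list entries that did not belong by function, with 1 symbol that names no gene, were removed after values of the lists had been seen. Named genes were members at an unadjusted p under 0.05, the 12 with most reads, marker and pair genes, and per list up to 4 called or otherwise the 2 with most reads. Others, such as *krt99*, were named after their values were seen. Keratin types follow gene names. Of 261 list entries 184 were matched. Protein and promoter sequences were not analysed here.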

Additional observations from a re-analysis of the deposited data

How the results depend on the processing

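The count of keratin genes past the threshold was 0 in edgeR under 3 other scalings, 2 other filters, limma voom and each left-out library, 2 with DESeq2 and 7 with the replicate number as a block (replicate block: *icn*, *icn2*, *krt8*, *krt18a.1*, *krt91*, *krt94* and *krt1-19d*, all lower, as were 2.99% of all genes tested). No label says that a number marks a shared clutch or day, and the replicate differences of the genotypes correlated at 0.279 over 18366 genes, with only 2 pairs. The block raised the keratin genes that were lower at an unadjusted p under 0.05 from 7 to 12, and leaving out a library gave 3 to 9. The count over all genes was 74, and it was 219 with library size only, 130 without the low count filter, 291 with DESeq2, 794 with the block and 1 to 163 with a library left out. For the 6 other lists together it was 10, then 17 with library size only, 25 with DESeq2, 36 with the block (10 desmosome and hemidesmosome and 11 superficial layer genes, all lower) and 1 to 14 with a library left out. The keratin median was -0.29, and -0.35 to -0.17 with a library left out. Signs turned only in members near 0 or with few reads. With a library left out the log2 fold change ran from -0.31 to 0.05 in *krt5*, -0.77 to 0.06 in *krt99*, -0.2 to 0.16 in KRT222 and -0.63 to 0.95 in *krt92*, and *krt5* and *krt99* turned only without wildtype replicate 2. KRT222 turned with upper quartile scaling and library size only (0.01 each). *krt92* turned with limma voom and the block (0.03 each). The causes were not tested. *krt95*, *krt1-c5* and *cyt1l* had too few reads for a comparison.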
